A study of Mus musculus with 2 samples.

Results

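Acute phase proteins are plasma proteins that the liver secretes in changed amounts during infection, injury and inflammation. The 10 genes described here encode serum amyloid A (Saa1, Saa2, Saa3 and Saa4), alpha-1-acid glycoprotein (Orm1, Orm2 and Orm3), haptoglobin (Hp), lipocalin 2 (Lcn2) and lipopolysaccharide binding protein (Lbp). They were taken by symbol from the 28692 genes listed for a pair of single-cell libraries, and all 10 had at least 1 UMI (a counted transcript molecule) in each library. In the textbook account, macrophages release IL-6, IL-1 and TNF, hepatocytes answer through STAT3, NF-kB and C/EBP factors, and glucocorticoids strengthen the response. Serum amyloid A rides on high-density lipoprotein, haptoglobin binds free hemoglobin, alpha-1-acid glycoprotein binds drugs and lipids, lipocalin 2 withholds iron from bacteria by binding their siderophores, and lipopolysaccharide binding protein hands bacterial endotoxin to CD14.

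The cells were primary hepatocytes from the liver of C57BL/6 mice, grown in 3 dimensions in growth-factor reduced matrigel, a gel of basement membrane proteins. The induction library came from medium with the synthetic glucocorticoid dexamethasone at 3 uM, and with EGF at 25 ng/mL and HGF at 50 ng/mL. The expansion library came from medium with the same EGF and HGF, with CHIR99021, an inhibitor of the kinase GSK3, at 3 uM and with the inflammatory cytokine TNFa at 100 ng/mL, and without dexamethasone. Both media held Y27632, a ROCK inhibitor, at 10 uM and A83-01, which blocks TGF-beta receptors, at 1 uM. The media thus differed in 3 factors, whose parts cannot be told apart. Each medium had 1 library, so there is no replicate check and no test was made. Intervals are at 95% and hold for counting error alone. The labels name no animal, culture or day.

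After filtering, 1245 induction cells and 1191 expansion cells remained, with 9201887 and 29390000 UMIs and a median of 6765 and 23184 UMIs per cell. Levels are given as CPM, a gene's UMIs scaled to the library total, and ratios as log2 of induction over expansion. The 10 hepatocyte markers together took 56244 CPM in the induction library and 32150 CPM in the expansion library. The 8 neutrophil markers summed to 0.869 CPM in the induction library and 0.715 CPM in the expansion library, and the 8 macrophage markers to 0.869 and 1.77 CPM in induction and expansion; S100a9, Ly6g, Ptprc, Adgre1 and Clec4f had no UMI in either library. The 7 cholangiocyte markers summed to 748 CPM in the induction library and 1428 CPM in the expansion library, nearly all from Spp1 and Sox9, with Krt19 at 1 UMI in induction and 6 in expansion and Krt7 at 0. Endothelial, stellate, T or NK, B, mesothelial and erythroid lists each summed to at most 3.80 CPM in the induction library and 2.25 CPM in the expansion library. The libraries shared 4 cell barcodes. A gauge of RNA from other cells, free or from a second cell in the droplet, differed between them: of cells with at least 2 Y-linked UMIs, 6 of 272 induction cells (2.21%, exact Clopper-Pearson interval 0.814 to 4.74%) and 192 of 599 expansion cells (32.1%, 28.3 to 36.0%) also held a UMI of Xist, an RNA that male cells do not make. These shares are at full depth, where a deeper cell catches a stray UMI more often, and the expansion cells were deeper. In the cells with at least 2 Y-linked UMIs and at most 3 Xist UMIs, Xist stood at 0.393% of its library level in the induction library and at 3.33% in the expansion library. Levels of members at these ratios are given beside the shares of cells they touch; their part in the differences was not tested.

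The genes lie in groups on the genome. On GRCm38 with the GENCODE M21 annotation, Saa3, Saa4, Saa1 and Saa2 lie in this order within 42.3 kb of chromosome 7 (46711998 to 46754313), and Orm1, Orm3 and Orm2 within 21.3 kb of chromosome 4 (63344560 to 63365878). Lcn2 (32384633 to 32388252) and Lbp (158306493 to 158332852) are far apart on chromosome 2, and Hp lies on chromosome 8 (109575128 to 109579172). Several are near copies. The Saa1 and Saa2 transcripts were 93.9% identical, and Orm1 and Orm2 were 91.0% identical over their length and 97.7% over the last 300 bases. Orm3 was 86.1% identical to Orm1 and 88.0% to Orm2. How the authors' counting split UMIs among Saa1 and Saa2, and among Orm1, Orm2 and Orm3, is therefore uncertain, and their sums are given too.

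RefSeq windows of 250 bases before the start of the gene (GRCm38.p6) were at hand for 7 of the 10 members; RefSeq's start can differ from GENCODE's. All 7 held the letters TTGCNNAA on either strand, the core of the sequence bound by C/EBP factors, against 9.56% of 32851 such windows of 27025 genes. Near copies share much of their sequence, so the 7 are not independent, and the motif was chosen after the windows had been seen. The windows of 5 members are printed from 5′ to 3′ on the strand of the gene, since they show how the match sits in the strongest serum amyloid gene of these cells (Saa3), in its neighbours, and in a pair of Orm copies with very different counts. Capitals mark the C/EBP match and, in Orm2 and Orm3, the letters TATAAA of a TATA box. The Saa3 match and the second Saa4 match read TTGCNNAA on the other strand, that of Orm2 on both, and no match overlapped one of another motif.
Saa3, chr7:46715677-46715926, minus strand: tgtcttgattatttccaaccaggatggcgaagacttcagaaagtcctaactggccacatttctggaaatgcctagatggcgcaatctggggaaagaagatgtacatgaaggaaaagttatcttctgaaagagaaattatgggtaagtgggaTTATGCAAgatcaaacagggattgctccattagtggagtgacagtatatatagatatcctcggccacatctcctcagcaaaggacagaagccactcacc
Saa1, chr7:46742981-46743230, minus strand: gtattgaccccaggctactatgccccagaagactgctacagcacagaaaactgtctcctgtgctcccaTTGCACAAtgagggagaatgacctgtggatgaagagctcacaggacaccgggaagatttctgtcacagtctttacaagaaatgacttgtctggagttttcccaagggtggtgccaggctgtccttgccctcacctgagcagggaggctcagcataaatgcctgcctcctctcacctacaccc
Saa4, chr7:46732604-46732853, minus strand: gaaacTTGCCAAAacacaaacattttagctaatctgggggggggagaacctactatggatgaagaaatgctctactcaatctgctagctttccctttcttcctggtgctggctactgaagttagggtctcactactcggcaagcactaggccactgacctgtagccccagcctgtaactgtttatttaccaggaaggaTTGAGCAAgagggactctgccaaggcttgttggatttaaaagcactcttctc
Orm2, chr4:63362199-63362448, plus strand: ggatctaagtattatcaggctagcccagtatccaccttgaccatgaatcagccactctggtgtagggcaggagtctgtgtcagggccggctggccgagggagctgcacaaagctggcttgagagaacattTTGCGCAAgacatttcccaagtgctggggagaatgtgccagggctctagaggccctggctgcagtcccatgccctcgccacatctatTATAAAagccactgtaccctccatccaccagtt
Orm3, chr4:63355908-63356157, plus strand: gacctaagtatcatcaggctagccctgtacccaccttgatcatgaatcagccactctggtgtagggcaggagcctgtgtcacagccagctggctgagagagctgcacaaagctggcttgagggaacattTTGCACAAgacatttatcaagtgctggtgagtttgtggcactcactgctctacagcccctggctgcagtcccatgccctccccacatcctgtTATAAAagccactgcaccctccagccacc

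The C/EBP match lay at -99 to -92 relative to the start in Saa3, at -182 to -175 in Saa1 and at -120 to -113 in Orm2. In Orm3 it lay at -121 to -114, and Saa4 had 2 matches. The Orm2 and Orm3 windows were 85.5% identical with 27 substitutions, of which G135A falls in the C/EBP match (the Orm2 base, its position counted from 1 at the 5′ end of the Orm2 window, then the Orm3 base). The Saa1 and Saa2 windows were 94.8% identical with 11 substitutions, none of them in the match. The letters TATAAA were in 2 of the 7 windows and in 12.4% of all windows. A STAT3 motif (TTCNNNGAA), an NF-kB motif and a glucocorticoid receptor motif, each searched on both strands in a single spelling, were in 0 of the 7 windows, against 7.02%, 3.90% and 0.387% of all windows. That says only that these spellings are not in these 250 bases. A match is a string of letters here and not a measured binding site.

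Together the 10 genes took 3.22% of all UMIs in the induction library (3.21 to 3.23%) and 4.01% in the expansion library (4.01 to 4.02%). The difference lay in Saa3, the serum amyloid A that many tissues make besides the liver. Without Saa3 the other members took 2.42% of UMIs in the induction library and 2.28% in the expansion library, a log2 ratio of 0.08 (-0.14 relative to the median gene of both libraries). In the higher library 9 members reached 10 CPM, the minimum for a call. Of these, none was at least 2-fold higher in the induction library with an interval excluding equality, against 9.17% of the 7220 genes that reached this minimum. By the same rule 1 member, Saa3, was lower, against 3.17% of those genes. Orm3 was under 10 CPM in both libraries and was not counted. These 9 had a median log2 ratio of 0.02, and all 7220 genes one of 0.21.

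**Figure D1:**
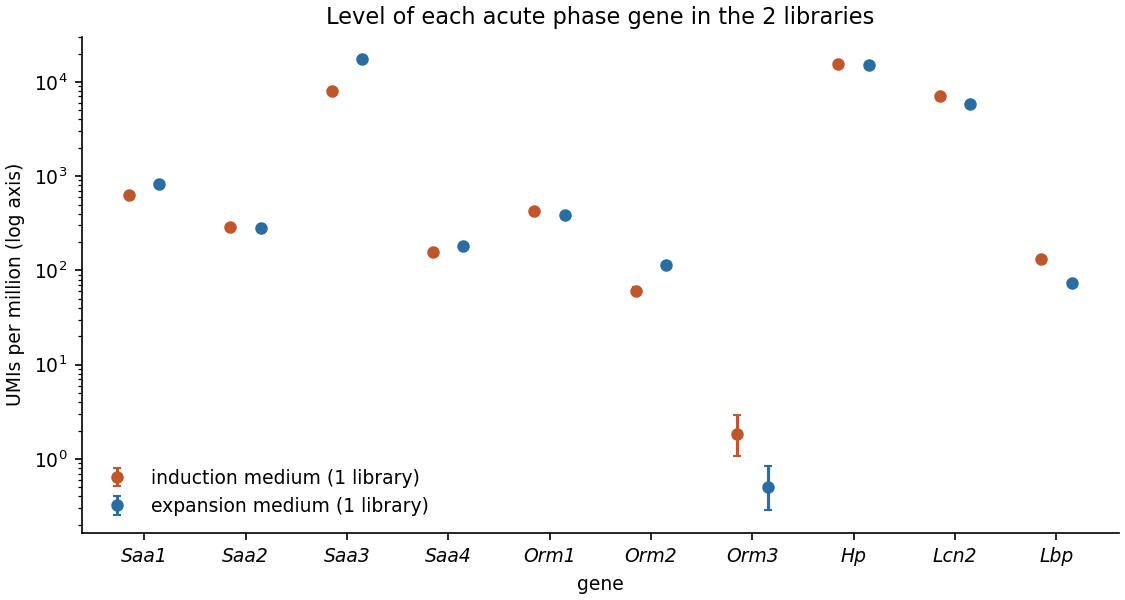
Level of each member in the induction library (left point of each pair) and the expansion library (right point), in CPM on a log axis, with exact Poisson 95% intervals that are mostly smaller than the points. Saa3 stood at 8020 CPM in the induction library and 17312 CPM in the expansion library, while Hp differed by 0.02 on the log2 scale.

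The scale matters for small ratios. The median gene, over those with 50 UMIs or more in each library, stood at a log2 ratio of 0.22. Relative to it, the ratios of Saa2 (-0.17), Orm1 (-0.08) and Hp (-0.20) turned below 0, while Lcn2 (0.07) and Lbp (0.61) stayed above 0 and the other measured members below it. The members' median was then -0.20. On this scale none of 9 members was at least 2-fold higher, against 6.65% of measured genes, and 2 of 9, Saa3 (-1.33) and Orm2 (-1.12), were lower, against 4.67%.

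Saa3 had 73802 UMIs (8020 CPM, 7963 to 8078) in the induction library and 508796 UMIs (17312 CPM, 17264 to 17360) in the expansion library. It was 2.16-fold lower in the induction library, a log2 ratio of -1.11 (-1.12 to -1.10). By UMI count, not scaled to transcript length, it was the most abundant gene of the expansion library and stood at rank 13 in the induction library. It made up 24.9% of the members' UMIs in the induction library and 43.1% in the expansion library. The size depended on which cells were compared. Cells with Y-linked UMIs and no Xist UMI held 9694 CPM in the induction library (503 cells) and 17448 CPM in the expansion library (505 cells), a log2 ratio of -0.85 that is short of 2-fold. Cells with Xist UMIs and no Y-linked UMI held 3993 CPM in the induction library (412 cells) and 12477 CPM in the expansion library (325 cells), a log2 ratio of -1.64.

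Saa1 and Saa2, the near-identical serum amyloid A genes that lead the acute phase of the mouse liver, differed by less than 2-fold over the whole libraries. Saa1 had 635 CPM (619 to 651) in the induction library and 818 CPM (808 to 828) in the expansion library, a log2 ratio of -0.37. Its ratio was further below 0 in the classes of cells with Xist or Y-linked UMIs but not both. It was -0.94 (-1.05 to -0.82) in cells with Xist UMIs and no Y-linked UMI, and -0.46 (-0.52 to -0.39) in the reverse class. Cells with both kinds were closer, with 768 CPM of Saa1 in the induction library (22 cells) and 821 CPM in the expansion library (275 cells). Saa2 had 288 CPM (277 to 299) in the induction library and 279 CPM (273 to 285) in the expansion library, a log2 ratio of 0.04 (-0.17 relative to the median gene) whose interval, -0.02 to 0.11, included equality. Within cell classes Saa2 was lower, at -0.31 (-0.50 to -0.12) in cells with Xist UMIs and no Y-linked UMI and -0.32 (-0.42 to -0.22) in the reverse class, though at 0.01 (-0.19 to 0.21) in cells with at least 5 Xist UMIs. Summed, the pair held 923 CPM in the induction library and 1097 CPM in the expansion library, a log2 ratio of -0.25. Saa4, the member of the family that is made constitutively, had 158 CPM (150 to 166) in the induction library and 181 CPM (176 to 186) in the expansion library, a log2 ratio of -0.20.

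Hp was the most abundant member in induction medium by UMI count and among the most abundant genes of both libraries, at rank 3 in each. It had 15431 CPM (15351 to 15512) in the induction library and 15199 CPM (15154 to 15243) in the expansion library, a log2 ratio of 0.02 (-0.20 relative to the median gene). Lcn2 had 7038 CPM (6984 to 7092) in the induction library and 5773 CPM (5745 to 5800) in the expansion library, a log2 ratio of 0.29. Its rank was 16 in the induction library and 34 in the expansion library. Lbp, at a lower level, had 132 CPM (124 to 139) in the induction library and 74.2 CPM (71.1 to 77.4) in the expansion library. It was 1.77-fold higher in the induction library, the largest log2 ratio among the measured members (0.83, 0.73 to 0.93), and did not reach 2-fold.

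The Orm genes had unlike ratios under the authors' split of their UMIs. Orm1 had 429 CPM (416 to 443) in the induction library and 390 CPM (382 to 397) in the expansion library, a log2 ratio of 0.14 (-0.08 relative to the median gene). Orm2 had 60.7 CPM (55.8 to 66.0) in the induction library and 114 CPM (110 to 118) in the expansion library, a log2 ratio of -0.90 (-1.04 to -0.77). Orm3 had 17 UMIs (1.85 CPM, 1.08 to 2.96) in the induction library and 15 UMIs (0.510 CPM, 0.286 to 0.842) in the expansion library, a log2 ratio of 1.86 with a wide interval (0.77 to 2.96). Summed over the family, the level was 492 CPM in the induction library and 504 CPM in the expansion library, a log2 ratio of -0.04 (-0.08 to 0.01). The sum does not depend on how UMIs were split within the family, but any left uncounted as ambiguous would be missing from it.

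Over single cells the fold difference in Saa3 shrank from low to high percentiles. The gap in UMIs per 10000, in contrast, was wider at the 75th and 90th percentiles than at the median. The median cell held 13.8 Saa3 UMIs per 10000 in the induction library and 84.7 in the expansion library. At the 25th percentile of cells the values were 2.31 in induction cells and 21.5 in expansion cells, 9.31-fold lower in induction. At the 75th percentile they were 84.0 in induction cells and 240 in expansion cells. At the 90th percentile they were 229 in induction cells and 456 in expansion cells, and at the 99th 769 in induction cells and 814 in expansion cells, 1.06-fold lower in induction. The single highest cell was an induction cell, with 1660 per 10000 against 1113 for the highest expansion cell. No expansion cell was below 5.72 per 10000, a value close to the 5.76 that Saa3 would have at the Xist ratio of that library. In the induction library, where 0.315 per 10000 would be the matching value, 10% of cells or more held no Saa3 UMI.

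**Figure D2:**
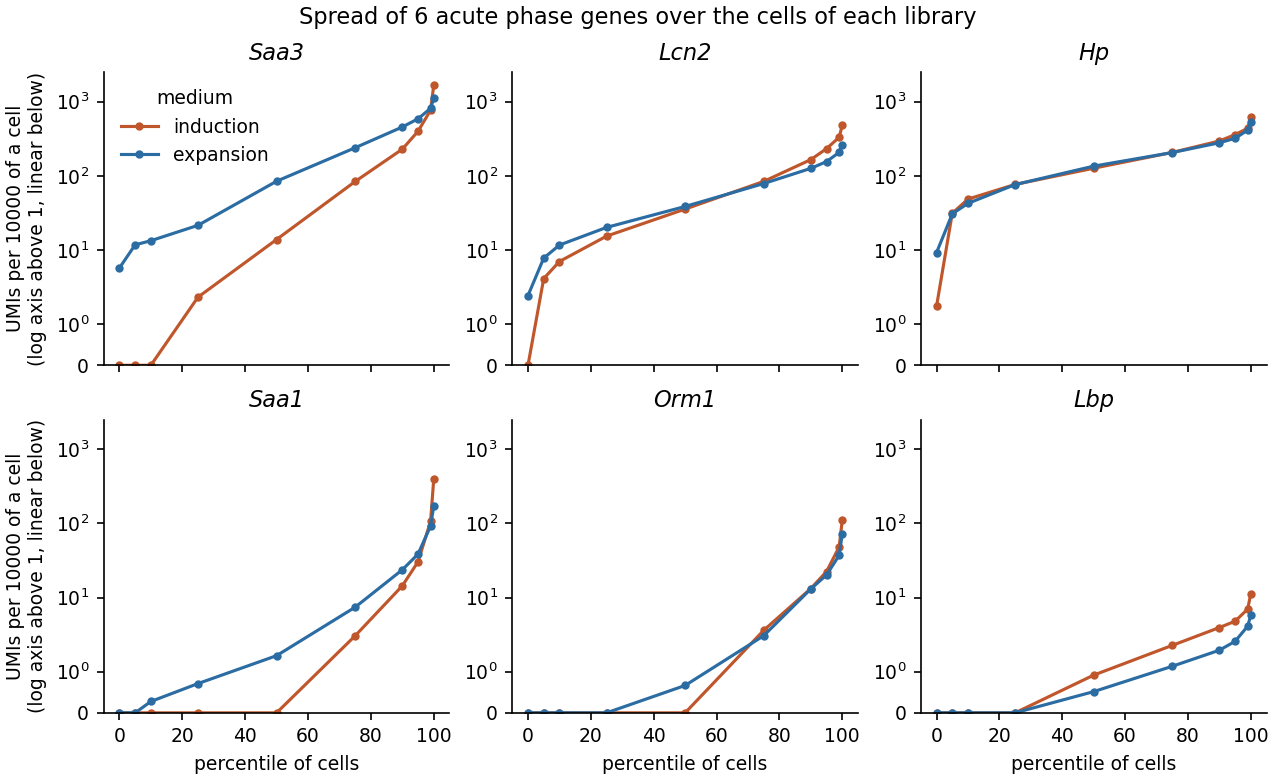
UMIs per 10000 UMIs of a cell (vertical axis, log above 1 and linear below) at the percentiles 0 to 100 of the cells of each library, for 6 members, with induction and expansion cells as separate lines. The Saa3 lines are far apart at the median (13.8 in induction cells, 84.7 in expansion cells) and meet near the 99th percentile (769 in induction cells, 814 in expansion cells), while the Hp lines lie together from the 5th percentile up (31.2 in induction cells and 30.7 in expansion cells there).

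Other members spread in their own way. These percentiles are at full depth, so a 0 in an induction cell can be a level that the deeper expansion cells would show. Saa1 had no UMI in the median induction cell and held 1.64 per 10000 in the median expansion cell, yet at the 99th percentile it held 106 in induction cells and 92.4 in expansion cells, and at the top 392 in an induction cell and 169 in an expansion cell. Lcn2 had crossing distributions, with 6.99 in induction cells and 11.7 in expansion cells at the 10th percentile, 35.6 (induction) and 38.7 (expansion) at the median, and 332 (induction) and 207 (expansion) at the 99th. Hp had nearly the same distribution in both, with medians of 127 in induction cells and 135 in expansion cells and 90th percentiles of 296 in induction cells and 280 in expansion cells. Lbp was higher in induction cells from the median (0.916 in induction, 0.515 in expansion) to the 99th percentile (6.99 in induction, 4.11 in expansion). After each cell was thinned to 2000 UMIs, the top 10% of cells held 58.1% of Saa3 UMIs in the induction library and 38.1% in the expansion library. For Lcn2 the shares were 39.1% in induction and 31.1% in expansion, and for Hp 24.8% in induction and 23.4% in expansion.

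Thinning to 2000 UMIs left 1231 induction cells, with 14 too shallow, and all 1191 expansion cells, and put both libraries on the same depth. Saa3 was then found in 72.1% of induction cells (69.5 to 74.5%) and 98.8% of expansion cells (98.0 to 99.4%). Unthinned, the shares were 88.9% of induction cells and 100% of expansion cells. At the Xist ratio an even spread of Saa3 RNA would give a UMI in 6.11% of thinned induction cells and 68.4% of thinned expansion cells, so no number of expressing cells is read from the expansion share. Saa1 was found in 26.5% of thinned induction cells (24.0 to 29.0%) and 42.0% of thinned expansion cells (39.2 to 44.8%), where that level would give 0.498% in induction and 5.30% in expansion; unthinned, 40.5% of induction cells and 90.8% of expansion cells held it. In thinned cells Saa2 was found in 13.2% (induction) and 20.5% (expansion), Saa4 in 21.9% (induction) and 25.2% (expansion), Orm1 in 28.5% (induction) and 27.2% (expansion), and Orm2 in 8.37% (induction) and 12.3% (expansion). Lbp ran the other way, in 23.2% of induction cells (20.8 to 25.6%) and 13.3% of expansion cells (11.4 to 15.3%). Hp was found in 99.4% of induction cells and 99.9% of expansion cells, Lcn2 in 93.9% of induction cells and 96.5% of expansion cells, and Orm3 in 6 of 1231 induction cells and 0 of 1191 expansion cells (up to 0.309%). Where a level like that of Xist would give few of these UMIs, as for Saa2, Saa4, Orm1, Orm2 and Lbp (at most 2.56% of expansion cells), all the shares lay above it, while for Hp it would give 11.4% of induction cells and 63.6% of expansion cells and for Lcn2 5.38% of induction cells and 31.9% of expansion cells.

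Cells differed in how many of the 10 genes they held. In thinned cells the median was 4 members in both libraries. At least 5 members were found in 378 of 1231 induction cells (30.7%, 28.1 to 33.4%) and 438 of 1191 expansion cells (36.8%, 34.0 to 39.6%). A single induction cell held all 10, and 4 induction cells held none. At full depth the members took 2.19% of the UMIs of the median induction cell and 2.76% of the median expansion cell. At the 99th percentile they took 14.6% in induction cells and 13.9% in expansion cells, and in the highest cell 25.9% (induction) and 19.7% (expansion).

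The members went together from cell to cell. Over the 36 pairs of the 9 measured genes, the Pearson correlation of log-scaled levels was positive in every pair, with a median of 0.38 in induction cells (n = 1245) and 0.54 in expansion cells (n = 1191). Thinned to 2000 UMIs, the medians were 0.28 in induction cells and 0.35 in expansion cells. These values describe cells of a single library that share its depth and free RNA, and cells are not replicates. Pairs of other genes were not compared in this way, so the pattern is not shown to be particular to the members. At full depth Saa1 and Saa2 had the highest value in induction cells (0.69 in induction cells, 0.73 in expansion cells). Orm1 and Orm2 had it in expansion cells (0.63 in induction cells, 0.82 in expansion cells). Both pairs are near copies. Thinned, Saa3 and Lcn2 had the highest value in both libraries (0.61 in induction cells, 0.67 in expansion cells). Saa1 and Saa2 then stood at 0.59 (induction) and 0.54 (expansion), and Orm1 and Orm2 at 0.45 (induction) and 0.49 (expansion). Among genes of unlike sequence, Saa3 and Lcn2 stood at 0.66 in induction cells and 0.79 in expansion cells at full depth. Saa1 and Orm1 stood at 0.66 in induction cells and 0.77 in expansion cells at full depth, and at 0.58 and 0.55 thinned. Hp and Lcn2 stood at 0.49 in induction cells and 0.74 in expansion cells at full depth, and at 0.46 and 0.64 thinned. The pairs of Lbp ran from 0.18 to 0.29 in induction cells and from 0.36 to 0.50 in expansion cells at full depth. Thinned, they ran from 0.07 to 0.18 in induction cells and from 0.10 to 0.19 in expansion cells, so most of that difference went with depth. The summed members were almost unrelated to a cell's depth, with a correlation of 0.02 in induction cells and 0.07 in expansion cells.

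**Figure D3:**
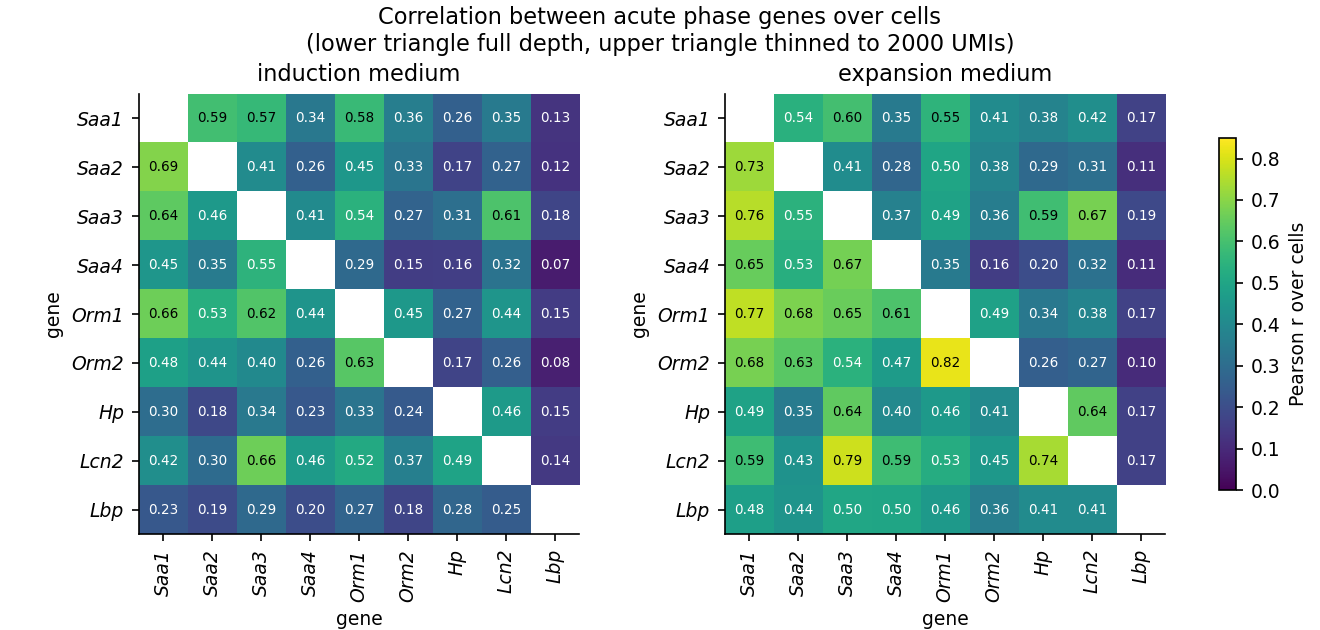
Pearson correlation over cells between the 9 measured members in the induction library (left) and the expansion library (right), at full depth below the diagonal and after thinning to 2000 UMIs above it. Every value is positive; Saa3 with Lcn2 reads 0.66 in induction cells and 0.79 in expansion cells at full depth.

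Outside the 10 genes, the levels most like their sum over cells belonged mostly to other secreted liver proteins. In induction cells these were the heme carrier Hpx (0.74), Lrg1 (0.57), the protease inhibitor Ambp (0.56), Apoa1 (0.56) and the thyroxine carrier Ttr (0.55). In expansion cells they were Lrg1 (0.80), Hpx (0.79), the iron carrier Trf (0.76), Alb (0.74) and Cd302 (0.74). Hpx was also the gene most like Hp in both libraries (0.75 in induction cells, 0.88 in expansion cells). Saa3 was most like Trf in induction cells (0.51) and Lrg1 in expansion cells (0.73), and Saa1 was most like Wfdc21 in expansion cells (0.68).

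Cells were grouped within each library without the 10 genes. In the induction library, clusters of 50 cells or more (a cluster of 6 cells was left out) held from 1.02% to 6.22% of their UMIs in the members, a 6.10-fold range that was 3.09-fold with coarser clusters (Leiden resolution 0.3). The highest, cluster 7 (276 cells, led by Serpina3k, Fbp1 and Serpina3m), held 1756 CPM of Saa1, 17379 of Saa3, 26678 of Hp and 13711 of Lcn2. The lowest, cluster 4 (93 cells, led by Sprr1a, S100a6 and Spp1), held 8.57, 317, 6706 and 3120 CPM of the same genes. In the expansion library the range was from 1.18% to 8.06%, 6.82-fold and 3.15-fold with coarser clusters. Cluster 1 (164 cells, led by Fabp1, Ang and Fabp5) held 2383 CPM of Saa1, 39197 of Saa3, 25100 of Hp and 10945 of Lcn2. Cluster 3 (113 cells, led like the lowest induction cluster by Sprr1a and S100a6) held 93.2, 3294, 5739 and 2571 CPM. Between the highest and lowest cluster Saa1 thus differed 205-fold in the induction library (8 UMIs in the lowest cluster) and 25.6-fold in the expansion library, Saa3 54.8-fold in induction and 11.9-fold in expansion, and Hp 3.98-fold in induction and 4.41-fold in expansion. The 10 hepatocyte markers together were also higher in the highest than in the lowest cluster. They took 9.18% of UMIs in induction cluster 7 and 1.85% in cluster 4, and 4.47% in expansion cluster 1 and 1.24% in cluster 3. In between, the order was not the same. Induction cluster 3 held 1.46% in the members and 4.78% in the markers, and cluster 2 held 2.91% and 4.59%. In the expansion library cluster 6 had the highest marker share (5.22%), with 7.56% in the members. The markers' part in the range was not tested. The Xist ratio of the expansion library corresponds to 576 CPM of Saa3 and 27.2 CPM of Saa1, and that of the induction library to 31.5 CPM of Saa3 and 2.49 CPM of Saa1.

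**Figure D4:**
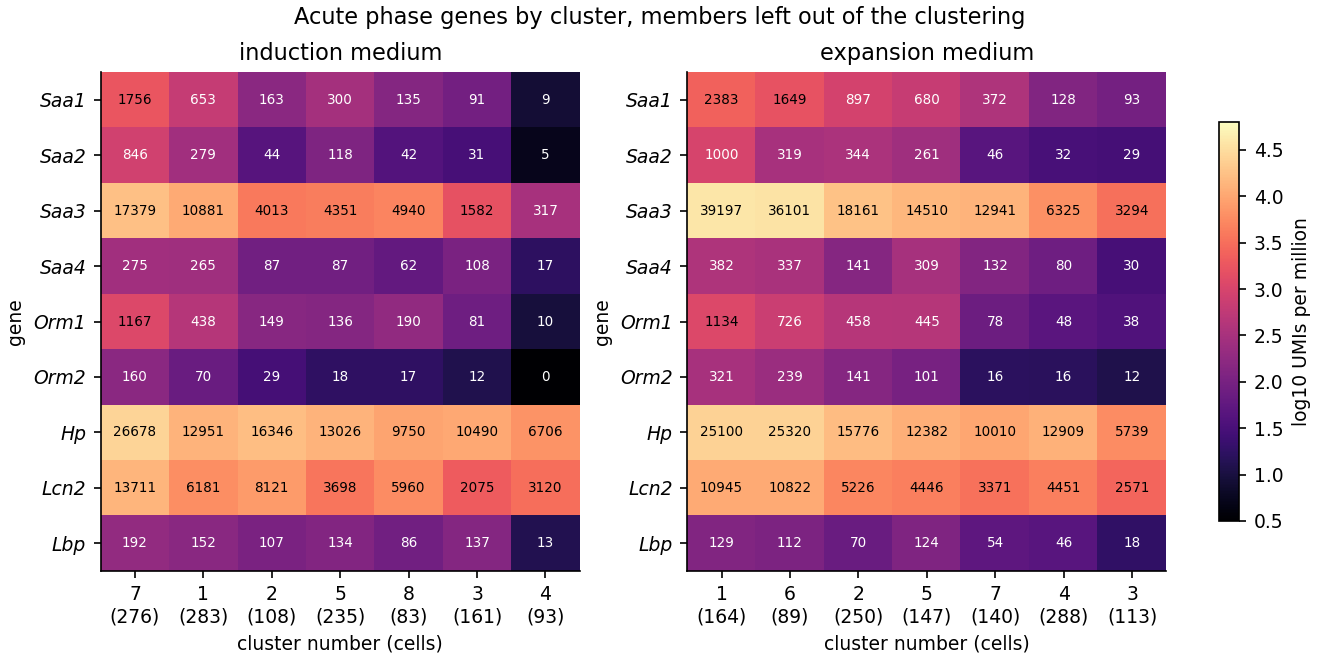
Level of the 9 measured members in each cluster of at least 50 cells, in CPM (numbers) and on a log10 colour scale, for the induction library (left) and the expansion library (right), with clusters ordered by the members' summed share and cell numbers in brackets. Saa3 ran from 17379 to 317 CPM over induction clusters and from 39197 to 3294 CPM over expansion clusters, and Hp less widely.

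Clusters also differed in the sex-linked RNA of their cells. Induction cluster 5 held 228 cells with Xist UMIs and no Y-linked UMI and 1 cell of the reverse kind, with 4351 CPM of Saa3 and 2.19% of UMIs in the members. Expansion cluster 7 held 119 such cells and 0 of the reverse kind, with 12941 CPM of Saa3 and 2.70% of UMIs in the members. Xist was among the leaders of both clusters, at 1936 CPM against 391 CPM in the other induction cells and 1222 against 344 CPM in expansion. Only the 10 members were removed before clustering, so Xist was free to shape the clusters and their split by Xist is not an independent result. In the whole libraries, the members took 3.68% of UMIs in Y-linked cells and 2.22% in Xist cells of induction medium, and 4.24% in Y-linked cells and 2.90% in Xist cells of expansion medium. The labels give no sex.

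Other genes listed as positive acute phase proteins, most of which encode plasma proteins whose level increases in inflammation, did not share a single pattern. Of 23 measured genes in a list of 24, 9 were called higher in the induction library and 1 lower, against 9.17% higher and 3.17% lower of all 7220 genes, with a median log2 ratio of 0.31. Relative to the median gene 7 were called higher and 2 lower, against 6.65% and 4.67% of all genes. The metallothionein genes Mt1 and Mt2 were among the 9 called higher, though they encode proteins of the cell and not of plasma. Both are counted again among the glucocorticoid receptor targets below. The protease inhibitors Serpina3m and Serpina3n, which belong to a family of near copies, had 832 and 303 UMIs in the induction library and 0 and 2 UMIs in the expansion library. For Serpina3n that is a log2 ratio of 8.92 (7.05 to 11.97). Crp, the pentraxin that marks inflammation in humans, stood at 469 CPM in the induction library and 75.3 CPM in the expansion library, and Itih3 at 162 CPM (induction) and 21.4 CPM (expansion). Serpina1b, the most abundant of the list, stood at 9252 CPM in the induction library and 11486 CPM in the expansion library, and the complement factor Cfb at 91.0 CPM (induction) and 161 CPM (expansion). Hamp, which encodes the iron hormone hepcidin, was the gene called lower, with 4 UMIs in the induction library and 449 in the expansion library, a log2 ratio of -5.14 (-7.02 to -3.77).

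Negative acute phase proteins, whose plasma level decreases in inflammation, had a median log2 ratio of 1.88. Alb, Ttr, Trf, Apoa1 and Apoa2 of this list are also among the 10 hepatocyte markers, so the results of these lists are not separate. Of 13 measured genes in a list of 14, 9 were called higher in the induction library and 1 lower (8 and 1 relative to the median gene), against the same 9.17% and 3.17% of all genes. Alb stood at 19450 CPM in the induction library and 1737 CPM in the expansion library, Apoa2 at 2385 CPM (induction) and 34.5 CPM (expansion), and the antithrombin gene Serpinc1 at 272 CPM (induction) and 3.95 CPM (expansion). Serpina6, the corticosteroid carrier, was the gene called lower, at 12.1 CPM in the induction library and 63.7 CPM in the expansion library, and Trf stood at 9661 CPM (induction) and 14800 CPM (expansion). Glucocorticoid receptor targets, a list that bears on dexamethasone, had 9 of 10 measured genes called higher and 0 lower, with a median log2 ratio of 1.85, against 9.17% of all genes called higher. Relative to the median gene 7 of the 10 were called higher, without Mt1. The tyrosine-degrading enzyme Tat had 1393 UMIs in the induction library and 1 in the expansion library (log2 ratio 12.12, 9.64 to 17.42), Zbtb16 27.8 CPM (induction) and 0.783 CPM (expansion), and the metallothionein Mt1 4484 CPM (induction) and 2102 CPM (expansion).

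**Figure D5:**
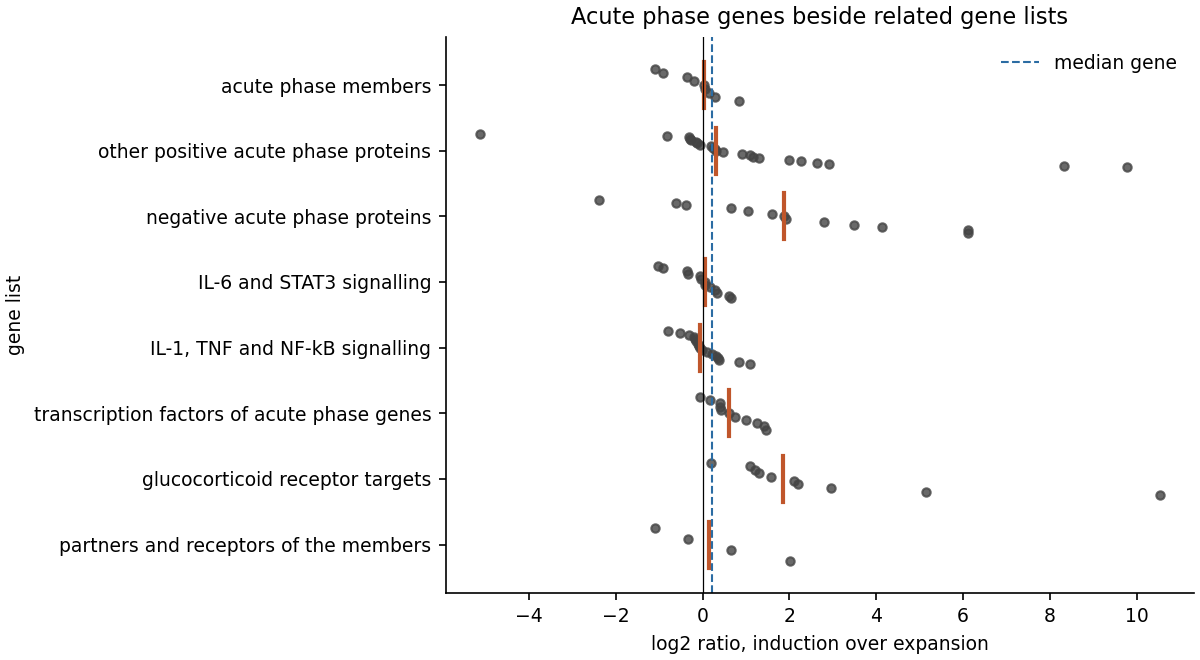
Log2 ratio of induction over expansion for each measured gene (points) of the members (top row) and of 7 related gene lists, with the median of each list as an orange bar and the median gene as a dashed line; genes under 3 UMIs in a library were placed at 3 UMIs, so Serpina3m, Serpina3n and Tat lie left of their ratio. The members lie between -1.11 and 0.83 with a median of 0.02, and the glucocorticoid receptor targets have a median of 1.85.

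Few genes of the signals that drive the acute phase were called, as held for all genes (9.17% higher, 3.17% lower), and some were too low to compare. Il6, Osm and Il1b had no UMI in either library. Of the IL-6 and STAT3 list, 13 of 17 genes were measured, 0 were called higher and 1 lower (0 and 2 relative to the median gene), with a median log2 ratio of 0.05. The shared receptor chain Il6st stood at 38.7 CPM in the induction library and 37.4 CPM in the expansion library, and Stat3 at 74.3 CPM (induction) and 71.3 CPM (expansion). The IL-6 receptor gene Il6ra had 54 UMIs in the induction library and 10 in the expansion library (log2 ratio 4.11, 3.12 to 5.25), under the 10 CPM minimum. The gene called lower was the cytokine Lif, at 12.1 CPM in the induction library and 24.6 CPM in the expansion library. Of the IL-1, TNF and NF-kB list, 17 of 24 genes were measured, 1 was called higher and 0 lower (0 and 1 relative to the median gene, the lower one being Tnf), with a median of -0.06. The gene called higher was the kinase scaffold Ikbkg, at 26.6 CPM in the induction library and 12.4 CPM in the expansion library. The NF-kB precursor gene Nfkb1 stood at 41.5 CPM (induction) and 59.7 CPM (expansion), and the inhibitor Nfkbia, the most abundant of the list, at 459 CPM (induction) and 514 CPM (expansion).

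Transcription factors that act on acute phase genes had a median log2 ratio of 0.60. Of 14 genes in the list, 13 were found by symbol, while Cebpd was not found and could not be assessed. Among the 11 measured genes, 3 were called higher in the induction library and 0 lower, against 9.17% and 3.17% of all genes. These were the nuclear receptor Hnf4a (250 CPM in the induction library, 93.4 in the expansion library), Prox1 (65.5 CPM induction, 24.0 CPM expansion) and the bile acid receptor gene Nr1h4 (43.5 CPM induction, 18.1 CPM expansion). Cebpa stood at 65.2 CPM in the induction library and 32.8 CPM in the expansion library, a log2 ratio of 0.99 just under the threshold, and Cebpb at 164 CPM (induction) and 122 CPM (expansion). The glucocorticoid receptor gene Nr3c1 stood at 48.3 CPM in the induction library and 36.8 CPM in the expansion library.

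Of 16 genes that encode partners and receptors of the members, 4 were measured, of which 1 was called higher and 1 lower, too few to set beside the 9.17% and 3.17% of all genes (median log2 ratio 0.16). The gene called lower was Cd14, to which Lbp hands endotoxin. It stood at 34.0 CPM in the induction library and 73.1 CPM in the expansion library, 2.15-fold lower in the induction library (log2 ratio -1.10), while Lbp itself was higher there by 0.83. Tlr4, the endotoxin receptor, the haptoglobin scavenger receptor Cd163, the formyl peptide receptor genes Fpr1 and Fpr2, Lrp2, which takes up lipocalin 2, and Bpi had no UMI in either library. Counts of 0 allow levels up to 0.326 CPM in the induction library and 0.102 CPM in the expansion library (3 UMIs). Lrp1, a scavenger receptor, was the gene called higher, at 30.0 CPM in the induction library and 7.45 CPM in the expansion library. The lipocalin receptor gene Slc22a17 had 20 UMIs in the induction library and 72 in the expansion library. Scarb1, which binds high-density lipoprotein, stood at 44.7 CPM in the induction library and 56.7 CPM in the expansion library.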

How the data were processed

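Whole-number UMI counts per gene and cell were deposited by the authors for 1 induction and 1 expansion library, made with a 10x Genomics droplet protocol per the labels' protocols and with Cell Ranger 2.1.1 (build mm10), per the submitters' processing notes. Annotation release and cell calling: not given in the sources used here. Cells with under 500 genes or over 25% mitochondrial UMIs were left out (30 of 1275 induction and 17 of 1208 expansion barcodes). Counts were summed per library and divided by the library total. Levels have exact Poisson, ratios exact conditional binomial and shares exact Clopper-Pearson intervals at 95%; counts of 0 allow 3 UMIs. A gene was called at 10 CPM or more, a ratio of 2 or more and an interval excluding 1. No p-value was computed. The ratio, call and thinning code was tested on simulated counts.

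Cells were thinned without replacement to 2000 UMIs with seed 1. Correlations are of log-scaled counts per 10000 UMIs. Clusters came from scanpy 1.11.5 and igraph 0.11.9 (Leiden, resolution 0.6, 20 components, 2000 variable genes less the members, 15 neighbours). Scrublet marked 2 induction and 4 expansion cells, which stayed in. Upstream windows are RefSeq's. Python 3.11.15, numpy 2.4.6, scipy 1.17.1, pandas 2.3.3, matplotlib 3.10.9 and Biopython 1.88 were used.

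The members, the 7 lists, the 10 marker lists, the rules and the alternatives were chosen with earlier results of these data known. Named were all members, the most abundant and the 2 largest ratios in each direction of a list among genes of 20 CPM or more, any gene of the signalling, transcription factor and partner lists, the 5 genes most like the summed members, the 3 most like a member, and the leaders of a cluster. Crp, Itih3 and Hamp were named with their values in view, and Mt2 for its place in both the positive and the glucocorticoid lists.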

Additional observations from a re-analysis of the deposited data

How the results depend on the processing

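Each library is 1 sample and the interval of every value covers counting error only, so depth limits Orm3 and the genes under 10 CPM, and the design limits everything else. No paired analysis was possible because each medium had 1 library. Of the alternatives, no cell filter, totals without the members, the removal of doublets and a floor of 20 CPM left each member's direction and call as reported.

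Saa3 stayed lower under each alternative but lost the 2-fold call in Y-linked cells (-0.85), and in cells with a Y-linked UMI and at most 3 Xist UMIs (-0.91), a class chosen after seeing the data, so 0 members were called lower there, as with a fold of 3. Orm2 met the call without mitochondrial and ribosomal protein genes (-1.13), scaled to the median gene (-1.12) and in Xist cells (-1.14), which made 2 members called lower, as did a fold of 1.5. A fold of 1.5 also called 1 member higher (Lbp), and so did no filter on low CPM (Orm3). Saa2 turned below 0 with 1000 genes and 10% mitochondrial UMIs (-0.073), without mitochondrial and ribosomal protein genes (-0.18), scaled to the median gene (-0.17), with equal weight per cell (-0.038), thinned (-0.027), in Xist cells (-0.31), in Y-linked cells (-0.32), in Y-linked cells with at most 3 Xist UMIs (-0.34) and summed with Saa1 (-0.25). Orm1 did so without mitochondrial and ribosomal protein genes (-0.087), scaled to the median gene (-0.080), in Xist cells (-0.11) and summed over Orm1, Orm2 and Orm3 (-0.035). Hp did so without mitochondrial and ribosomal protein genes (-0.20), scaled to the median gene (-0.20), in Y-linked cells (-0.017) and in Y-linked cells with at most 3 Xist UMIs (-0.057). Orm3 did so in Xist cells (-0.16) and in the sum (-0.035). In cells with at least 5 Xist UMIs, chosen after seeing the data, Saa2 (0.01), Orm1 (0.13) and Orm3 (0.70) were above 0 and Orm2 (-0.65) had no call. The causes were not tested.

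The members' UMI share in induction and expansion medium was 4.55% and 6.63% without mitochondrial and ribosomal protein genes, 3.12% and 3.88% with equal weight per cell, 3.15% and 3.90% thinned, 2.22% and 2.90% in Xist cells, 3.68% and 4.24% in Y-linked cells, 2.14% and 2.91% in cells with at least 5 Xist UMIs, and 3.66% and 4.37% in Y-linked cells with at most 3 Xist UMIs; the induction share was 3.15% with the stricter cell filter. At least 5 members were found in 19.4% of induction and 24.5% of expansion cells thinned to 1000 UMIs, 54.3% and 93.1% unthinned, and 14.4% and 17.5% with at least 2 UMIs required. The median correlation thinned was 0.28 and 0.35. At resolution 0.3 the highest cluster's share was 3.09-fold (induction) and 3.15-fold (expansion) the lowest.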

Other observations

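Cells with Y-linked UMIs and no Xist UMI held more of each of the 9 measured members than cells with Xist UMIs and no Y-linked UMI, in both media. Orm1 stood at 527 CPM in Y-linked cells and 148 CPM in Xist cells of the induction library, and at 445 CPM in Y-linked cells and 160 CPM in Xist cells of the expansion library. Saa1 stood at 639 CPM in Y-linked cells and 251 CPM in Xist cells in induction medium, and at 877 CPM (Y-linked) and 479 CPM (Xist) in expansion medium. Lcn2 stood at 8806 CPM in Y-linked cells and 4714 CPM in Xist cells in induction medium, and at 6274 CPM (Y-linked) and 4131 CPM (Xist) in expansion medium. Lbp stood at 141 CPM in Y-linked cells and 111 CPM in Xist cells in induction medium, and at 75.7 CPM (Y-linked) and 55.8 CPM (Xist) in expansion medium. Cells with neither kind of UMI had the highest level of several members, among them Saa2 at 678 CPM in the induction library (308 cells) and 806 CPM in the expansion library (86 cells). These cells were also the shallowest, with a median of 5702 UMIs in induction medium and 16678 in expansion medium. Depth and RNA from other cells moved with these classes, and their part was not tested. The classes were read from RNA in cells of 1 library per medium, and the labels name neither animals nor their sex.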
